A study of Arabidopsis thaliana with 12 samples.

Results

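In Arabidopsis apices that were switched synchronously from inflorescence-like growth to flower formation, 156 nuclear genes stood higher 2 days after the switch than both before it and in wild-type inflorescences. They were chosen by their values. A gene was taken when its level at day 2 was at least 10 FPKM and when the ratio of day 2 to day 0 and the ratio of day 2 to inflorescences, each with 1 FPKM added to both values, were both at least 1.5. FPKM scales a gene's fragment count by the length of its transcript and by the fragments mapped in all. The rule could have been met by 12355 genes, those with a value above 0 at day 0 and in inflorescences and at least 10 FPKM at day 2, of 33280 nuclear gene identifiers in the table. The share that met it was 1.26%. Of these 12355 genes, 2.64% passed the ratio against day 0 and 17.9% the ratio against inflorescences, so the first ratio set most of the choice. "Peak" here means the highest of these 3 groups only, since no other time was measured.

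All plants were of the Landsberg erecta (Ler) background. The day-0 group was apices of untreated ap1 cal 35S::AP1-GR plants, of which the cauliflower-like structures of the main inflorescence were dissected. The day-2 group was the same line and tissue 2 days after 10 µM dexamethasone with Silvet, a wetting agent, was pipetted on. Inflorescences came from untreated wild-type plants and had lost their flowers older than stage 12, and leaves were taken from the rosettes of wild-type plants in flower. The ap1 cal mutations were thus shared by both apex groups and absent from the other 2 groups. In this line the floral regulator APETALA1 (AP1) is fused to the glucocorticoid receptor's hormone-binding domain and driven by the 35S promoter, a viral promoter that is active in most tissues rather than in AP1's own domain. AP1 RNA, which the files do not split into transgene and mutant gene, stood at 659 FPKM at day 0, 813 at day 2, 151 in inflorescences and 0.429 in leaves. No mock-treated group was used here, so dexamethasone, Silvet and 2 days of growth cannot be told apart. Day 2 and inflorescences differed in genotype, treatment, stage and tissue together.

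Each group had 3 libraries, which the authors had merged to a single value per gene. No spread between libraries, standard deviation or test could be had for any value here, and depth per library is unknown. In bulk tissue, fewer cells of a type and less RNA per cell cannot be told apart. The 4 meristem markers (STM, KNAT1, CLV3, WUS) summed to 313 FPKM at day 0, 368 at day 2, 86.1 in inflorescences and 0.472 in leaves, and each was higher at day 2 than at day 0. All 5 markers of tapetum and pollen were under 1 FPKM at day 2, with GRP17 at 0; their sum was 0.994 FPKM at day 0 and 1.08 at day 2, with 2265 in inflorescences. The 5 mesophyll markers summed to 2771 FPKM at day 0 and 2167 at day 2, with 10220 in inflorescences, and all 5 were lower at day 2 than at day 0. RBCS1A made up most of these sums, at 2493, 2029 and 8661 FPKM in the same order. The other mesophyll markers were lower at day 2 by a larger factor, for example CA1 at 121 and 63.0 FPKM at day 0 and day 2. Trichome markers (3 genes) summed to 6.37 FPKM at day 0 and 1.99 at day 2, with 2.48 in inflorescences, guard-cell markers (3) to 3.34, 5.04 and 19.0, and xylem markers (3) to 3.40, 2.63 and 49.4. In each of these sets, 2 of the 3 markers were lower at day 2 than at day 0. The higher guard-cell sum came from KAT1 alone, at 0.302 FPKM at day 0 and 2.57 at day 2. Markers of anthers, mesophyll, guard cells and xylem were thus higher in inflorescences than at day 2, and their part in the ratios against inflorescences was not tested.

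A flower begins as a small mound of cells on the flank of the inflorescence meristem, where auxin collects. LEAFY and AP1 give that mound the identity of a floral meristem, and organ founder cells, boundaries between organs and the first vascular precursors follow. Auxin is moved to these sites by exporters and by AUX1/LAX importers. Phosphate supply is handled by a separate, well-studied circuit. The regulator PHR1 binds an element called P1BS, SPX proteins hold PHR1 back when phosphate is plentiful, and miR399 removes the RNA of PHO2, an enzyme that marks phosphate transporters for breakdown. The non-coding RNA AT4 binds miR399 and shields PHO2.

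Because 10 of the 156 genes belong to that phosphate circuit, the promoters of 3 of them that hold P1BS are shown. They are the 250 bases before the RefSeq gene start in assembly TAIR10.1, 5′ to 3′, with P1BS (GNATATNC, which reads the same on both strands) in capitals. Genes were matched to that annotation by locus identifier, and the sequence is that of the Columbia reference, not of Ler.
AT4 (chr5:894332-894581, plus strand): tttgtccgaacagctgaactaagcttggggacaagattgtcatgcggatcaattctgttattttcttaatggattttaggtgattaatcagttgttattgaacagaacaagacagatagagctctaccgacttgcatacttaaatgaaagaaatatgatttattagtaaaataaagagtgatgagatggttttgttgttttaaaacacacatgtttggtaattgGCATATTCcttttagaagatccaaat
GDPD1 (chr3:350011-350260, minus strand): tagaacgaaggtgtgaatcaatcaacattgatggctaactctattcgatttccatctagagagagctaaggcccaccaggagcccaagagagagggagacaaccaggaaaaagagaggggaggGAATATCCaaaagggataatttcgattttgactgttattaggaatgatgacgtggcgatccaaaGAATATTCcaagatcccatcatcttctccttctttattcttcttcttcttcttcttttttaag
PS2 (chr1:27466349-27466598, minus strand): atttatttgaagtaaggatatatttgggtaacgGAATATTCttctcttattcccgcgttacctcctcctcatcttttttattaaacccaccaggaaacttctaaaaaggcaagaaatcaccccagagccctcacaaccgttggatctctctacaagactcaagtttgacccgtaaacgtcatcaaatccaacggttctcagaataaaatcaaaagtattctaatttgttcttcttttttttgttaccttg
AT4 held 1 match, GDPD1 2 and PS2 1 in these windows. In a window reaching from 250 bases before to 50 after the start, P1BS was present in 6 of the 10 phosphate genes (60%), adding PHT1;4, SPX1 and SQD1. It was present in 6 of the 15 other phosphate genes that could have met the rule (40%), in 12 of the 137 remaining protein-coding members (8.76%), in 6.0% of all protein-coding genes that could have met it and in 6.25% of all protein-coding genes. In the 250 bases before the start alone, the shares were 30% of the 10 phosphate members, 20% of the other 15, 8.16% of all 147 protein-coding members and 5.28% of the genes that could have met the rule. LFY, UFO, PUP4, GPT2 and AT1G23110 were among the members outside the circuit with a match in that shorter window. The P1BS search was added after the phosphate genes had been seen, and a match is a description of letters, not a site shown to be bound.

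The auxin response element TGTCTC, searched on both strands, lay in 19.0% of member windows of 250 bases before to 50 after the start, against 13.1% of the genes that could have met the rule and 14.2% of all protein-coding genes. It is shown for a pair of members of the auxin and vascular groups described below, in the 250 bases before the start, with the element in capitals.
IAA20 (chr2:19307464-19307713, plus strand): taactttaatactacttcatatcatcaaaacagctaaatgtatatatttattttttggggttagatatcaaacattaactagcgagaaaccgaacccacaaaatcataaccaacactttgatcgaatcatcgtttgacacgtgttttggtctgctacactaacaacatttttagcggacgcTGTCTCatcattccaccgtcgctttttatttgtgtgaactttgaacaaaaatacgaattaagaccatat
HB8 (chr4:15868651-15868900, minus strand): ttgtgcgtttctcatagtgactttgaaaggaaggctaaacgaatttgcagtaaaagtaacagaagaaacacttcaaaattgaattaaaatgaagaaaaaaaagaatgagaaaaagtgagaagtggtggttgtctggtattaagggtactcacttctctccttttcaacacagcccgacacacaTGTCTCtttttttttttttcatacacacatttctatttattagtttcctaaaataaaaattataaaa
In the 250 bases before the start alone, the shares were 14.3% of members and 10.4% of the genes that could have met the rule. Besides P1BS and TGTCTC, no element searched was more frequent in members in both windows. In the longer window, the LEAFY core CCANTG was in 23.8% against 26.4%, the G-box CACGTG in 8.84% against 9.34%, the CArG box that MADS proteins bind in 2.72% against 3.36%, and the TCP site GGGCCC in 1.36% against 3.10%. The mitosis-specific activator core CNAACGG was in 5.44% against 6.95%, and the E2F sites TTTCCCGC or TTTGGCGC, found in 3 members, in 2.04% against 1.41%. In the shorter window, the E2F sites were in 0.680% of members against 1.09% and the G-box in 8.84% against 7.67%. All were read on both strands, and matches of different elements could overlap.

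Short pairing sites for microRNAs are shown next, because several members are textbook targets of conserved microRNAs. The mature sequence is given first, from RefSeq, with the seed (bases 2 to 8) in capitals, then the site in the member's RNA, written as DNA, with the bases facing the seed in capitals. Coordinates are those of TAIR10.1.
miR164a: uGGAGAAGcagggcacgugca
CUC1 site (chr3:5111137-5111157, plus strand): agcacgtgtcctgTTTCTCCa
CUC2 site (chr5:21902301-21902321, minus strand): agcacgtgtcctgTTTCTCCa
miR172c: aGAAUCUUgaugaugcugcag
AP2 site (chr4:17403019-17403039, plus strand): ctgcagcatcatcAGGATTCt
miR165a-3p: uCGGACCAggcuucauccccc
HB8 site (chr4:15866872-15866974, minus strand): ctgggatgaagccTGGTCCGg
miR399f: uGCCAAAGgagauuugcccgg
PHO2 site (chr2:14281884-14281904, minus strand): ttgggcaaatctcCTTTGGCa
The CUC1, CUC2, AP2 and HB8 sites lie in the coding sequence, that of HB8 across an intron, and the PHO2 site in the 5′ untranslated part. CUC1 and CUC2 carry the same site letters. With mismatches scored 1 and G:U pairs 0.5, the scores were 2 for CUC1 and CUC2, 0.5 for AP2, 2.5 for HB8 and 1 for PHO2. An ungapped search of 25 conserved families up to a score of 3 found a site in 6 of 147 member transcripts (4.08%) and in 187 of 12146 transcripts of genes that could have met the rule (1.54%). The sixth was AT1G75640, a receptor-like kinase, at a score of 3. The search allowed no bulge, was added after the members had been seen, and says nothing of pairs it did not find.

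Among the members themselves, the median level was 17.6 FPKM at day 0, 37.9 at day 2, 11.3 in inflorescences and 5.55 in leaves. Day-2 levels ran from 10.1 FPKM for ATSBT5.2, a subtilisin-like protease, to 1146 FPKM for the cyclophilin AT2G21130. At day 2, 22 members reached 100 FPKM and 43 were under 20. The ratio of day 2 to day 0 had a median of 1.85 and reached 14.2, and the ratio to inflorescences had a median of 2.69 and reached 38.9. Both ratios were at least 2 in 50 members. In 123 members the inflorescence level was below the day-0 level, and in 33 it was above. These values chose the members, so they describe the choice and support nothing.

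**Figure D1:**
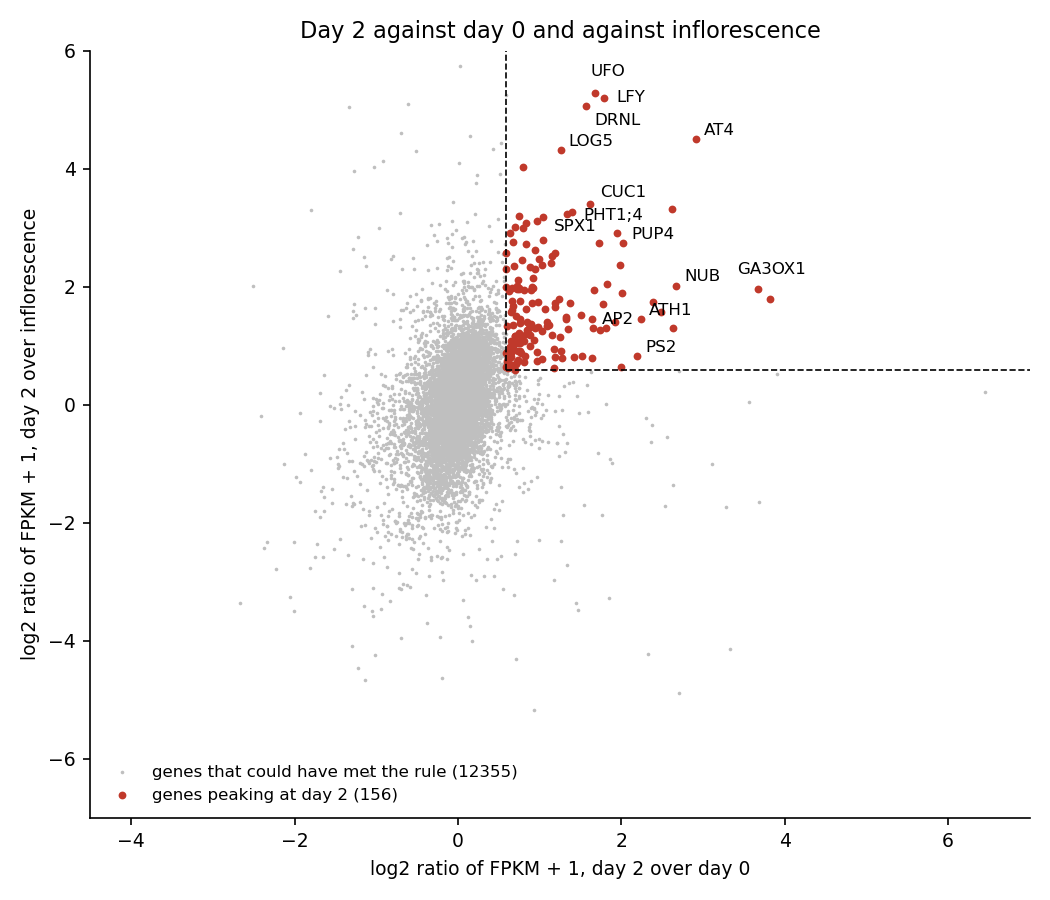
Each point is a gene that could have met the rule, at the log2 ratio of day 2 over day 0 (x axis) and of day 2 over inflorescence (y axis), both of FPKM + 1; the 156 members are in red and dashed lines mark a ratio of 1.5. Among the members, LFY, UFO and DRNL have the highest inflorescence ratios, at 36.9, 38.9 and 33.4, and AT1G23110 and GA3OX1 the highest day-0 ratios, at 14.2 and 12.7; AT4 is high in both, at 7.51 and 22.7.

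Floral meristem regulators had the highest ratios against inflorescences among the members. LFY, the master regulator of floral meristem fate, stood at 45.2 FPKM at day 0, 158 at day 2, 3.31 in inflorescences and 0.208 in leaves. UFO, the F-box partner of LFY, stood at 19.4, 64.1, 0.673 and 0.0222 FPKM in the same order. Both were high in both apex groups and near absent from whole inflorescences and leaves. AP2, which acts in sepal and petal identity and restrains AGAMOUS, had 19.4, 63.2, 25.0 and 17.6 FPKM, and so stayed measurable in every group. PAN, a bZIP regulator of organ number, had 50.8, 79.5, 9.65 and 0.0952 FPKM.

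These 4 were the members among 15 floral identity genes that could have met the rule. On that list, 10 genes were at least 1.5 times higher at day 2 than at day 0 and 1 was lower by as much, with a median log2 ratio of 1.54, against 0.01 over all 12355 genes. The organ identity genes of the same list took another course. AP3 stood at 1.31 FPKM at day 0 and 202 at day 2, with 173 in inflorescences, and PI, AG, SEP1, SEP2 and SEP3 were higher in inflorescences than at day 2. CAL, mutated in this line, stood at 16.8 and 14.6 FPKM in the apices and 8.21 in inflorescences. No MADS-box gene was a member, of 24 annotated by that word that could have been. Of all 12355 genes 1.26% were members, 2.64% were at least 1.5 times higher at day 2 than at day 0 and 3.62% lower.

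Genes that mark organ founder cells and organ boundaries formed the next group. DRNL, an AP2-type factor expressed where organs will arise, stood at 12.6 FPKM at day 0 and 39.3 at day 2, with 0.205 in inflorescences, and was listed at 0 in leaves. AIL6 and ANT, related factors that sustain organ growth, had 31.8 and 110 FPKM at day 0 and 55.9 and 184 at day 2, with 6.10 and 46.5 in inflorescences. All 3 sat in both apex groups at levels above whole inflorescences. Their relative DRN, by contrast, went from 9.32 to 7.20 FPKM between day 0 and day 2, and AIL5 and AIL7 were at day-0 ratios of 0.960 and 0.856. ARF5, the auxin-response factor MONOPTEROS, missed the rule at a ratio of 1.48, from 136 to 202 FPKM. All told, 3 of 8 organ initiation genes that could have met the rule did, against 1.26% of all 12355 genes.

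CUC1, a NAC factor that keeps organs separate, stood at 19.7 FPKM at day 0, 62.6 at day 2, 4.98 in inflorescences and 0.0216 in leaves. CUC2, which shares that role, had 18.1, 29.3, 6.68 and 0.00875 FPKM. The third gene of the trio, CUC3, differed from both at 38.8 FPKM at day 0 and 36.7 at day 2, with 4.10 in inflorescences; unlike CUC1 and CUC2 it had no site in the miR164 search. ATH1, a BELL homeodomain factor of organ bases, had 6.40, 33.9, 11.7 and 4.36 FPKM. The boundary list was not uniform: of 8 genes, 3 were at least 1.5 times higher at day 2 than at day 0 and 2 were lower by as much, LSH3 from 150 to 54.5 FPKM and LSH4 from 72.4 to 12.8. Its median log2 ratio against day 0 was 0.02. By comparison, 2.64% of all 12355 genes were higher by as much and 3.62% lower. The 3 higher genes were the members of this list, against 1.26% of all genes.

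Polarity and growth genes supplied 6 further members. AS1, a MYB factor that shuts off meristem genes in organs, stood at 150 FPKM at day 0, 253 at day 2, 64.2 in inflorescences and 27.6 in leaves. ZPR2, a small protein that binds and blocks HD-ZIP III factors, had 22.0, 49.8, 21.3 and 0.727 FPKM, and HB8, one of those factors, 11.5, 24.6, 13.9 and 10.4 FPKM. An HD-ZIP III factor and an inhibitor of that class were thus both members, while REV, PHB and PHV had day-0 ratios of 1.11, 1.41 and 1.05. NUB, a zinc-finger factor of lateral organ growth, stood at 0.963, 11.5 and 2.07 FPKM and was listed at 0 in leaves; its relative JAG had a similar day-0 ratio (0.243 to 6.57 FPKM) but 5.58 FPKM in inflorescences. The growth-regulating factors GRF2 and GRF5 had 28.9, 46.9 and 8.35 FPKM and 76.3, 115 and 22.7 FPKM, GRF5 at the edge of the rule with a day-0 ratio of 1.51. CUC2 and GRF5 were lost when 5 FPKM rather than 1 was added. By list, 2 of 7 HD-ZIP III and ZPR genes, 1 of 7 organ polarity genes and 3 of 12 organ growth genes were members. In the same order, 2, 2 and 3 of them were at least 1.5 times higher at day 2 than at day 0. Lower by as much were 0, 0 and 1. The shares over all 12355 genes were 1.26% for members, 2.64% for higher and 3.62% for lower. The polarity list was headed abaxial polarity, but its only member was AS1. None of its KAN, YAB, ETT or ARF4 genes was a member.

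Of 14 genes that maintain meristems, none was a member. At the 1.26% of all 12355 genes, a list this short could well hold none. STM stood at 195 FPKM at day 0 and 217 at day 2, with 41.2 in inflorescences, and KNAT1 at 103, 128 and 27.1 FPKM. WUS, at 6.91, 13.4 and 17.8 FPKM, was the only gene of the 14 past 1.5 against day 0. As a list, 11 of the 14 were at least 1.5 times higher at day 2 than in inflorescences, against 17.9% of all genes. A high level against inflorescences was thus shared by most meristem genes of this list. Against day 0 only WUS passed 1.5, and of all genes 2.64% did.

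**Figure D2:**
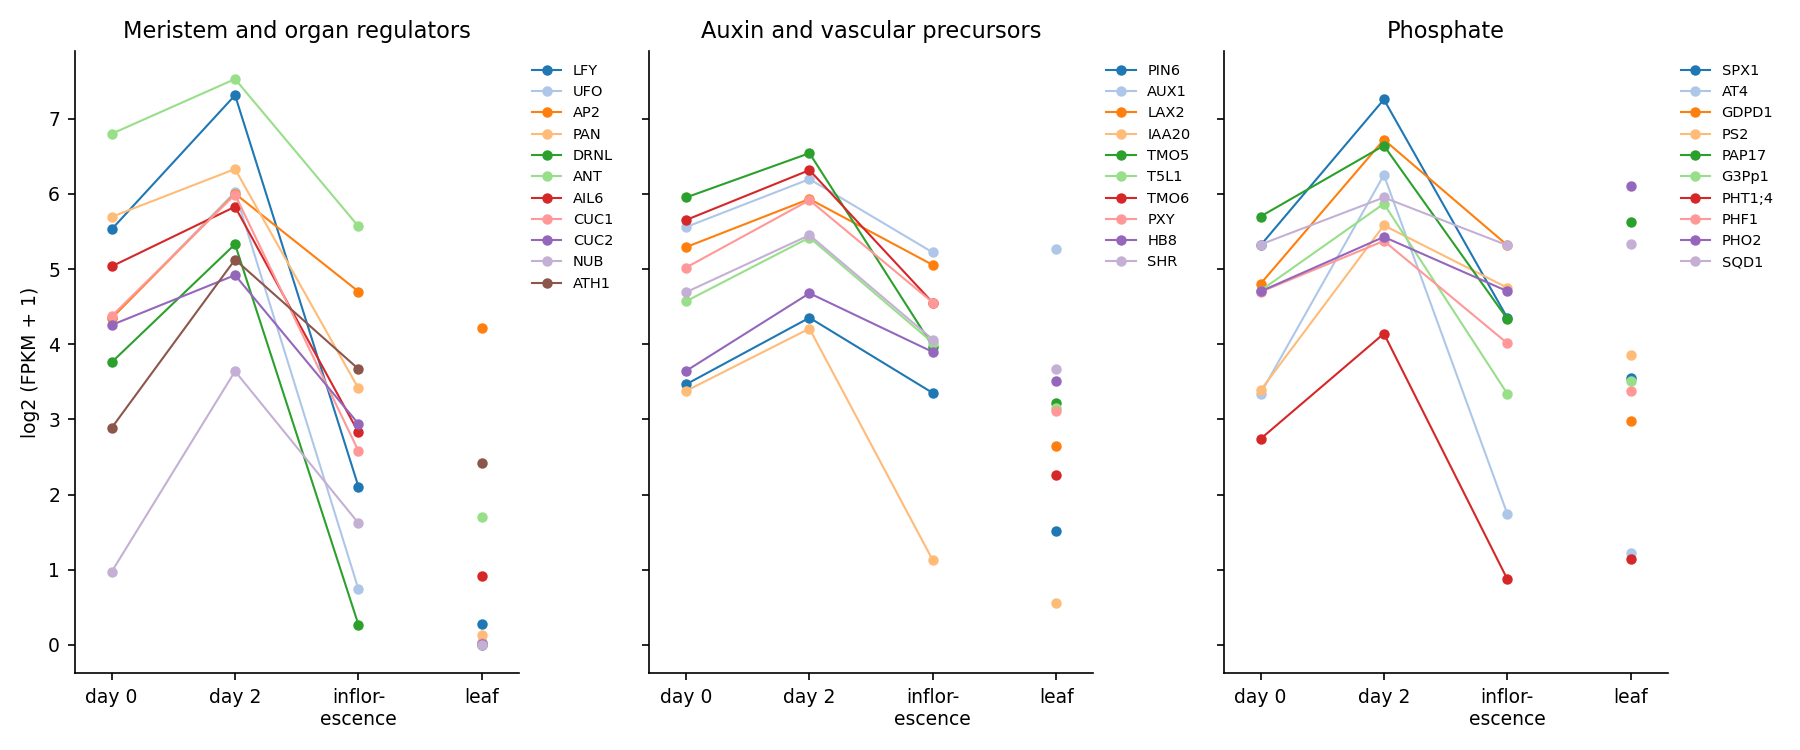
Levels of named members as log2 (FPKM + 1) at day 0, at day 2, in inflorescences (joined by lines) and in leaves (unjoined point), a single merged value per gene and group with no error bar. Every line peaks at day 2 because the rule requires it; the leaf points separate LFY, UFO, CUC1 and CUC2, near 0, from AUX1, PAP17 and PHO2, which were at 37.4, 48.3 and 68.1 FPKM in leaves.

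Auxin carriers were members on both the export and the import side. PIN6, an exporter of the endoplasmic reticulum and plasma membrane, stood at 10.1 FPKM at day 0, 19.4 at day 2, 9.20 in inflorescences and 1.87 in leaves. The importers AUX1 and LAX2 had 46.2 and 38.2 FPKM at day 0, 72.4 and 60.1 at day 2, and 36.3 and 32.2 in inflorescences. PIN6 was at a day-0 ratio of 1.85, and the importers were nearer to the threshold, both at 1.56. WAT1, a vacuolar auxin exporter, was a member at 139, 214 and 122 FPKM.

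Other auxin genes moved less or otherwise. PID, a kinase that directs auxin transport, had 87.3 FPKM at day 0 and 91.7 at day 2, and the biosynthesis gene TAA1 had 16.7 and 15.5. YUC4, which makes auxin, missed with a ratio of 1.48, and YUC1 stood at 3.93 and 8.39 FPKM, under the level required. On the list of auxin synthesis and transport, 4 of 12 genes were at least 1.5 times higher at day 2 than at day 0 and none was lower by as much. Members made up 3 of the 12 (25%), AUX1 and LAX2 among them, while PIN6 and WAT1 were not on this list. The shares over all 12355 genes were 2.64% for higher, 3.62% for lower and 1.26% for members. On the auxin response list, 1 of 25 was a member (4%), and a single member of a list this long says little beside the 1.26% of all genes. It was IAA20, an atypical repressor, at 9.40, 17.5, 1.18 and 0.471 FPKM in the order day 0, day 2, inflorescence and leaf.

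Genes of the provascular cells, the narrow files that will become veins, had 5 members of 12 (41.7%), against 1.26% of all 12355 genes. That was the largest share of any list, but the phosphate (40%), organ initiation and organ boundary lists (37.5% each) were close. The median log2 ratio of the provascular list was 0.52 against day 0 and 1.06 against inflorescences. Over all 12355 genes these medians were 0.01 and 0.15. TMO5, a bHLH factor that starts vascular cell divisions, stood at 61.0 FPKM at day 0, 92.2 at day 2, 14.7 in inflorescences and 8.33 in leaves. Its relative T5L1 had 22.8, 41.8, 15.2 and 7.90 FPKM, and LHW, the partner of both, had 68.9, 94.2, 45.0 and 21.5 FPKM and a day-0 ratio of 1.36. TMO5 lay at the edge of the rule, at a ratio of 1.504, and was lost when 5 FPKM rather than 1 was added.

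TMO6, a Dof factor that acts with them, stood at 49.3 FPKM at day 0, 78.7 at day 2, 22.4 in inflorescences and 3.79 in leaves. PXY, the receptor kinase of the cambium and procambium, had 31.5, 59.4, 22.5 and 7.68 FPKM. With HB8, which was counted on the HD-ZIP III and ZPR list too, these make the 5 members of the list. All 12 genes of the list had a ratio above 1 against day 0, from 1.07 for the phloem regulator APL to 2.05 for HB8. Of the 12, 6 passed 1.5, against 2.64% of all genes. The sixth was the thermospermine synthase ACL5 at 1.61, which lay at 1.40 against inflorescences. The xylem markers LAC4, IRX3 and NST1, which belong to mature vessels and fibres, were at 1.301, 1.17 and 0.159 FPKM at day 2. SHR, which moves from the vascular cylinder to its neighbours in the root, was a member outside the list with 24.9 FPKM at day 0 and 42.8 at day 2, with 15.7 in inflorescences.

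The Dof family gave 4 members, of 13 genes that could have been: TMO6, DOF2.4, AT2G28510 and AT1G64620. Genes were counted by Dof words in their annotation, except TMO6, which was counted by its own name. Its place in the count was thus set beforehand. The share of members over all 12355 genes was 1.26%. DOF2.4 stood at 9.77 FPKM at day 0 and 17.3 at day 2, with 5.69 in inflorescences, AT2G28510 at 31.2, 51.8 and 17.7, and AT1G64620 at 19.4, 31.1 and 14.1. This count was made after the members had been seen, and AT1G64620 was lost when 5 FPKM rather than 1 was added.

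Cytokinin and gibberellin each gave a single enzyme. LOG5, which releases active cytokinin, was among the most abundant members and stood at 191 FPKM at day 0, 458 at day 2, 22.1 in inflorescences and 12.4 in leaves. The related LOG4 and LOG7 had 32.0 and 29.4 FPKM and 25.0 and 20.7 FPKM at day 0 and day 2, and the response regulator ARR7 went from 94.3 to 42.5. On the cytokinin list, 1 of 16 genes was at least 1.5 times higher at day 2 than at day 0 and 3 were lower by as much. Among all 12355 genes, 2.64% were higher, 3.62% lower and 1.26% members, so a single gene on a list this short says little. AHP6, an inhibitor of cytokinin signalling, fell just outside the rule at a ratio of 1.4996 (56.1, 84.7 and 1.26 FPKM).

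GA3OX1, which makes bioactive gibberellin, stood at 0.504 FPKM at day 0, 18.2 at day 2, 3.92 in inflorescences and 6.93 in leaves. The step before it, GA20OX1 and GA20OX2, had 8.06 and 1.96 FPKM and 8.39 and 11.1 FPKM at day 0 and day 2, and the inactivating enzyme GA2OX2 went from 40.2 to 21.5. RGL1 and RGL2, repressors of the gibberellin response, were at ratios of 1.73 and 3.39 against day 0 but were higher in inflorescences, at 59.5 and 48.4 FPKM, than at day 2, at 20.8 and 12.5. On the gibberellin list, 3 of 15 were at least 1.5 times higher at day 2 than at day 0 and 1 was lower by as much, against 2.64% and 3.62% of all 12355 genes. GA3OX1 was its only member, and 1.26% of all genes were members.

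**Figure D3:**
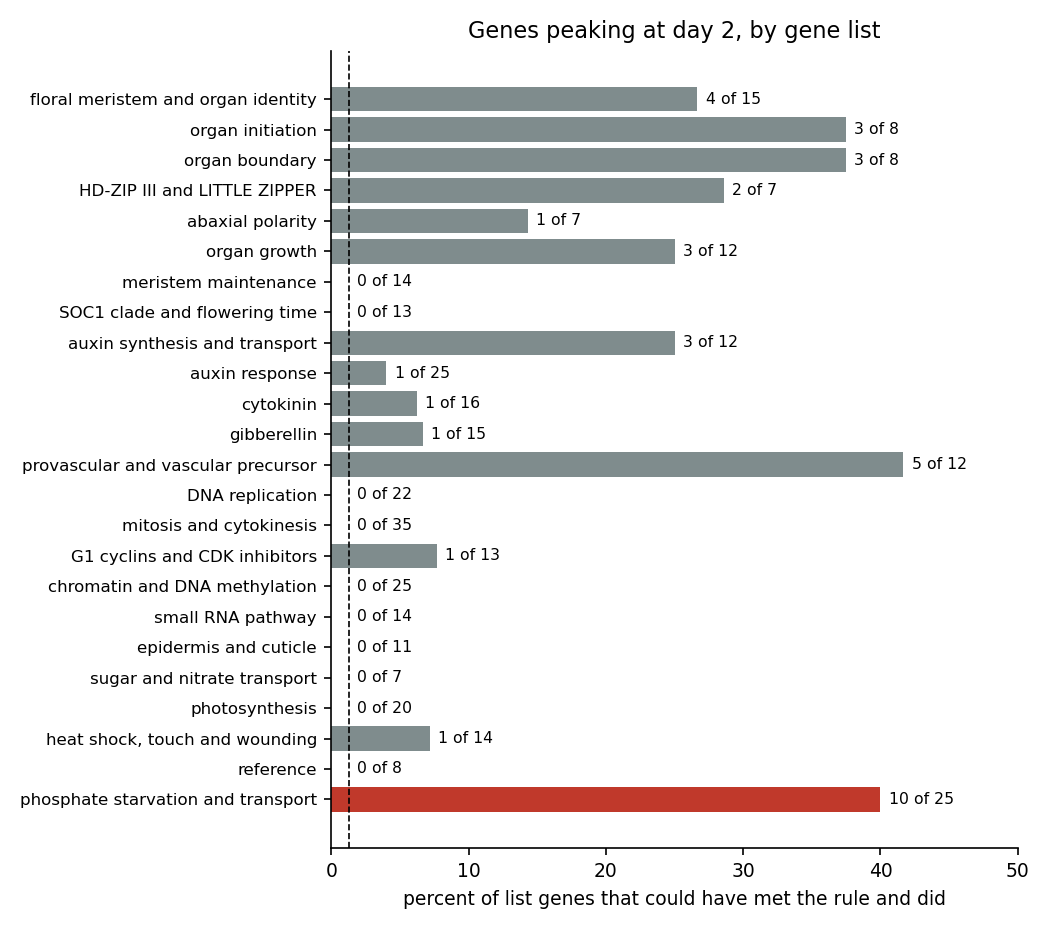
Share of each gene list that met the rule, as a percent of its genes that could have met it, with the counts at the bars; the dashed line is the 1.26% of all 12355 genes. Provascular (5 of 12), phosphate (10 of 25, in red, a list added after the members had been seen), organ initiation and organ boundary genes (3 of 8 each) have the longest bars, and the lists of DNA replication, mitosis, chromatin, small RNA and photosynthesis genes have none.

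The phosphate genes were the largest group that no list of flower development covers. SPX1, the phosphate sensor that restrains PHR1 and is itself raised by phosphate shortage, stood at 38.8 FPKM at day 0, 152 at day 2, 19.4 in inflorescences and 10.7 in leaves. AT4, the miR399 decoy, had 9.15, 75.2, 2.35 and 1.33 FPKM. PHO2, the target of miR399, had 25.0, 42.0, 25.1 and 68.1 FPKM. The first pair stood highest at day 2 by a wide margin, whereas PHO2 was highest in leaves.

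Enzymes that free phosphate from other molecules were members too. PS2, a phosphatase that acts on pyrophosphate, stood at 9.46 FPKM at day 0, 46.9 at day 2, 25.9 in inflorescences and 13.5 in leaves. GDPD1, which splits glycerophosphodiesters left from membrane lipids, had 26.9, 105, 38.9 and 6.89 FPKM. PAP17, a purple acid phosphatase, had 51.0, 99.0, 19.2 and 48.3 FPKM. SQD1, which makes the sulfolipid that can stand in for phospholipids, lay near the edge with 39.1, 60.9, 38.9 and 39.2 FPKM.

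On the transport side, PHT1;4, a phosphate importer best known from roots, stood at 5.68 FPKM at day 0, 16.7 at day 2, 0.835 in inflorescences and 1.20 in leaves. G3Pp1, a predicted glycerol-3-phosphate transporter, had 25.2, 57.5, 9.14 and 10.4 FPKM. PHF1, which lets PHT1 proteins leave the endoplasmic reticulum, had 24.9, 40.5, 15.2 and 9.43 FPKM. A sensor, a decoy, phosphatases and carriers were thus all among the members.

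The list of 54 phosphate genes was drawn up from textbook knowledge after SPX1, AT4 and others had been seen among the members, so its count is a description. Of its 25 genes that could have met the rule, 11 were at least 1.5 times higher at day 2 than at day 0 and 2 were lower by as much, with a median log2 ratio of 0.51; over all 12355 genes the shares were 2.64% higher and 3.62% lower. The gene past 1.5 against day 0 that was no member was MGD2, a galactolipid synthase, with 6.33 FPKM at day 0 and 15.6 at day 2, with 16.8 in inflorescences. The 2 lower genes were PAP10, from 32.5 to 20.1 FPKM, and GDPD2, from 49.3 to 27.5. PHR1 itself stood at 38.1 FPKM at day 0 and 35.6 at day 2, SPX4 at 15.2 and 13.6, and SPX2 at 21.9 and 32.3. IPS1, the close relative of AT4, was at 0.0196 FPKM at day 0 and 0.319 at day 2. Against inflorescences, 12 of the 25 genes were at least 1.5 times higher at day 2 and 1 was lower by as much. Of all genes, 17.9% were higher by as much. The median log2 ratio of the 25 against inflorescences was 0.25, near the 0.15 of all genes. Of the 10 members, PHO2 and SQD1 were lost when the groups were rescaled to the same upper quartile, which lowers every log2 ratio of day 2 over inflorescences by 0.15; SQD1 was also lost when 5 FPKM was added.

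**Figure D4:**
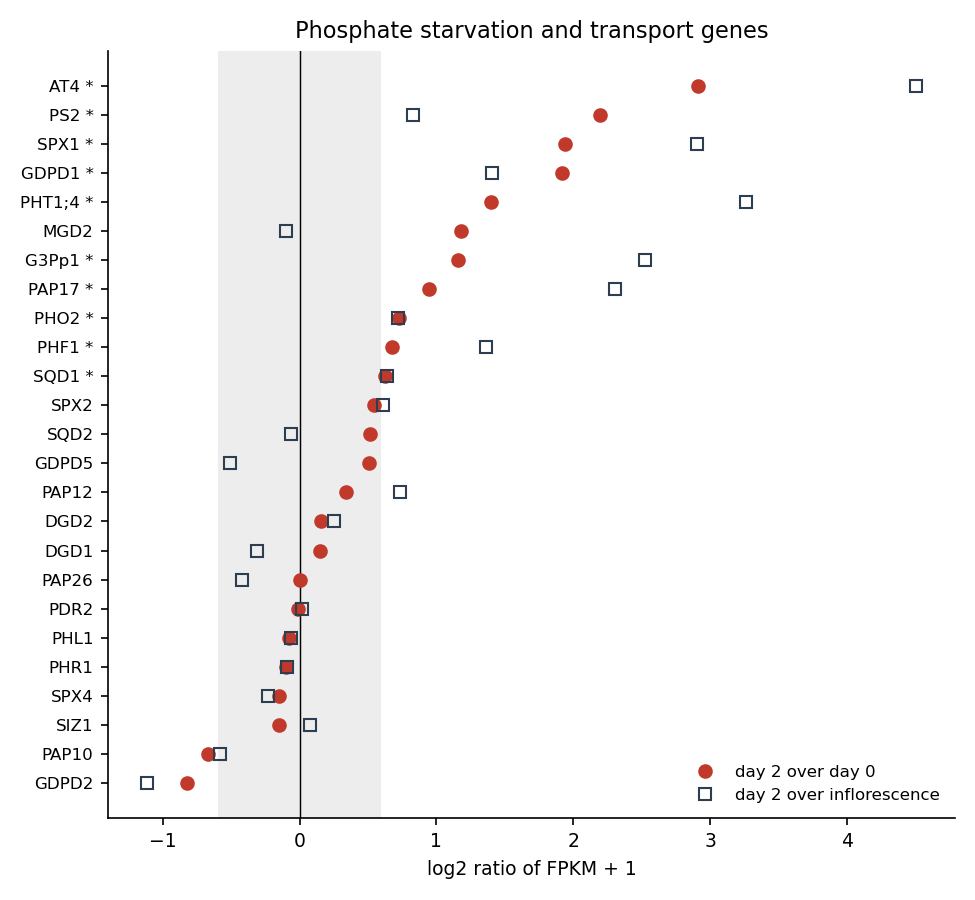
Log2 ratios of FPKM + 1 for the 25 phosphate genes that could have met the rule, day 2 over day 0 (filled circles) and day 2 over inflorescence (open squares); the grey band spans ratios within 1.5 either way and asterisks mark the 10 members. AT4, PS2, SPX1, GDPD1 and PHT1;4 lead, at day-0 ratios of 7.51, 4.58, 3.84, 3.78 and 2.64, and PHR1 lies in the band.

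No gene of the DNA replication and mitosis lists was a member. Of all 12355 genes 1.26% were, so lists of this length could well hold none. Of 22 DNA replication genes and 35 genes of mitosis and cytokinesis, none differed by 1.5 times or more between day 0 and day 2. Over all 12355 genes, 2.64% were higher at day 2 by as much and 3.62% lower. Against inflorescences, 15 and 28 of the list genes were higher at day 2 by as much, and 17.9% of all genes were. MCM2, a subunit of the replicative helicase, stood at 32.1 FPKM at day 0 and 36.3 at day 2, with 21.7 in inflorescences, and the mitotic cyclin CYCB1;1 at 52.4, 65.6 and 22.5. Of 13 G1 cyclins and inhibitors of cyclin-dependent kinases, 2 were at least 1.5 times higher at day 2 than at day 0, CYCD4;1 and CYCD6;1, and 3 were lower by as much, CYCD1;1, KRP3 and KRP5. CYCD6;1 had 4.13 FPKM at day 0 and 12.2 at day 2, but a ratio of 1.29 against inflorescences. The only member was CYCD4;1, at 11.1, 20.6, 8.42 and 0.736 FPKM in the order day 0, day 2, inflorescence and leaf.

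The lists of chromatin and DNA methylation genes (25) and small RNA genes (14) held no member and no gene past 1.5 against day 0 in either direction. Over all 12355 genes, 1.26% were members, 2.64% higher and 3.62% lower, so lists of this length could well hold none. MET1, the maintenance methyltransferase, stood at 34.1 and 36.1 FPKM at day 0 and day 2, and AGO1, which carries microRNAs, at 240 and 224. Outside those lists, ATXR6, a histone methyltransferase, was a member with 8.65 FPKM at day 0 and 14.1 at day 2, with 6.62 in inflorescences, and so was MBD5, a protein with a methyl-CpG-binding domain, with 18.8, 29.7 and 18.2. Both were lost when 5 FPKM was added, and MBD5 also when the groups were rescaled to the same upper quartile.

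Lists that differed in the opposite direction held few members, though at the 1.26% of all 12355 genes a short list can hold none. Of all genes, 3.62% were at least 1.5 times lower at day 2 than at day 0. Of 13 genes of the SOC1 clade and of flowering time, 10 were at least 1.5 times lower at day 2 than at day 0, for example AGL42 at 73.8 and 42.0 FPKM, and none was a member. SOC1 itself, at 203 and 135 FPKM, just missed that ratio. Of 20 photosynthesis genes, 8 were at least 1.5 times lower at day 2 than at day 0, and all 20 were lower by as much than in inflorescences. Of 14 genes of heat shock, touch and wounding, 7 were at least 1.5 times lower at day 2 than at day 0. The exception there was HSFA2, a heat-shock factor, which was a member at 27.7, 49.4, 12.0 and 37.0 FPKM. None of 13 tapetum and pollen genes could have met the rule. The epidermis and cuticle list (11 genes that could have met the rule) and the list of sugar and nitrate transport (7) held no member; ATML1, which specifies epidermis, stood at 56.3 and 55.6 FPKM at day 0 and day 2. The sugar exporter SWEET1 went from 6.61 to 64.5 FPKM but stood at 131 in inflorescences. Of the reference genes, PP2AA3 was at 40.3, 39.9 and 38.2 FPKM and SAND at 31.5, 31.8 and 32.3.

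Beyond these lists lay 118 of the 156 members. Words for transcription regulators stood in the annotation of 34 members (21.8%), against 5.63% of the genes that could have met the rule, words for transport in 9 (5.77% against 2.41%) and words for protein kinases in 10 (6.41% against 5.07%). A further 13 were annotated as uncharacterised (8.33% against 5.79%). These counts depend on the wording of RefSeq products and miss genes such as LFY, whose product name holds none of the words. The regulator words included a few gene names that members carry, among them DORNROSCHEN, AINTEGUMENTA and TARGET OF MONOPTEROS.

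Regulators outside the lists included several of low level in leaves. AT1G49475, a B3-domain factor, stood at 27.9 FPKM at day 0, 49.3 at day 2, 2.09 in inflorescences and 2.56 in leaves. bZIP58 had 7.24, 26.3, 3.09 and 1.06 FPKM, and WRKY14 12.4, 29.5, 4.12 and 0.0949. These 3 were low in inflorescences as LFY was, though at lower day-2 levels. AT5G49700, annotated as an AT-hook protein, had 8.21, 18.0, 1.09 and 1.07 FPKM. ERL1, a receptor kinase that acts with ERECTA in growth and stomatal spacing, had 36.9, 69.8, 20.4 and 0.243 FPKM; the plants are in an erecta background.

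Among transport and metabolism genes, PUP4, a purine permease, stood at 8.25 FPKM at day 0, 36.5 at day 2, 4.64 in inflorescences and 1.06 in leaves. ABCB15, an ABC transporter, had 1.04, 11.7, 4.15 and 0.436 FPKM. NIP5;1, a boric acid channel, had 17.2, 37.0, 11.3 and 16.1 FPKM, and GPT2, a glucose-6-phosphate translocator of plastids, 7.38, 28.7, 6.18 and 26.6. The last pair was as present in leaves as at some apex stages, unlike PUP4 and ABCB15. MIPS2, an inositol phosphate synthase, had 61.3, 177, 61.1 and 13.6 FPKM, and pPLAIIIbeta, a patatin-like lipid hydrolase, 10.4, 44.7, 11.2 and 30.1. The enzymes of the trehalose pathway, TPPI and TPS5, were members with 11.8 and 15.7 FPKM at day 0 and 21.8 and 26.8 at day 2, with 2.45 and 12.2 in inflorescences. FLS6, annotated as a flavonol synthase, had 9.83, 26.3 and 1.90.

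The largest ratio against day 0 was that of AT1G23110, annotated only as a fold protein, at 0.339 FPKM at day 0, 18.0 at day 2, 4.45 in inflorescences and 0.808 in leaves. Next after GA3OX1, AT4, NUB and ABCB15 came AT5G66816, AT3G14060 and AT1G62690, of no sure function. AT5G66816 stood at 1.27, 12.9 and 0.391 FPKM, AT3G14060 at 7.30, 45.6 and 14.6, and AT1G62690 at 2.94, 19.5 and 5.14. AT4G13180, annotated as an NAD(P)-binding protein, had 3.54, 16.9 and 2.49 FPKM and 52.6 in leaves. AT1G56020, with 57.0, 96.4 and 9.66 FPKM, completes the 12 highest ratios against inflorescences.

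MicroRNA genes appeared as precursors. MIR171a, whose product acts on HAM-type meristem regulators, stood at 7.12 FPKM at day 0 and 31.5 at day 2, with 19.9 in inflorescences, and MIR319b, whose product acts on TCP growth regulators, at 5.69, 12.7 and 0.995; both were listed at 0 in leaves. MIR171a was lost when 5 FPKM was added and when the groups were rescaled to the same upper quartile. Their mature sequences, seeds in capitals, share no seed.
miR171a-3p: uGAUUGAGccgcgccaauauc
miR319b: uUGGACUGaagggagcucccu
The libraries were made from polyadenylated RNA cut into fragments, so these values concern precursors and not mature microRNAs, and FPKM of short annotated RNAs is unsure. Annotated transcripts under 500 nucleotides numbered 7 among the 156, against 200 of 12323. The others included a tRNA-Pro gene, AT3G52285, and a snoRNA, AT1G03935; the tRNA has near-identical copies, among which reads cannot be assigned with certainty.

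Leaves took no part in the choice, so the leaf level can be compared with other genes. The share of members under 1 FPKM in leaves was 33 of 156 (21.2%), against 2.64% of the genes that could have met the rule. The median leaf level was 5.55 FPKM against 28.8. Of the members, 128 (82.1%) were at least 1.5 times higher at day 2 than in leaves, against 34.9% of all 12355 genes, and 12 (7.69%) were at least 1.5 times higher in leaves, against 28.8%. The rule used the day-2 level in these ratios, so the choice itself set part of them, and only the leaf level is free of it. By the leaf level, members were lower in leaves than other genes with a comparable floor at day 2.

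That was not particular to a peak at day 2. The mirrored rules, with 10 FPKM required in the higher groups, gave 74 genes in falling order from day 0 over day 2 to inflorescences, 135 in rising order and 364 lowest at day 2. Under 1 FPKM in leaves were 32.4% of the falling genes, 20% of the rising ones and 3.02% of those low at day 2, with median leaf levels of 3.88, 12.6 and 109 FPKM. The genes low at day 2 stood apart with high leaf levels. Genes are not replicates, and no test of these differences was made.

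**Figure D5:**
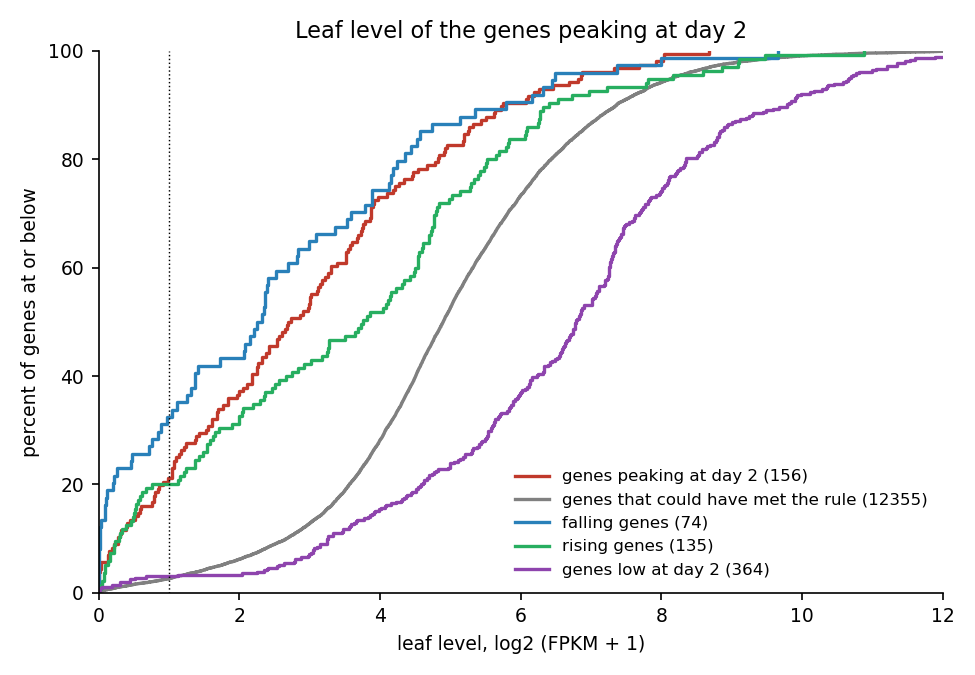
Cumulative percent of genes at or below a leaf level, given as log2 (FPKM + 1), for the members, the genes that could have met the rule and 3 mirrored patterns; the dotted line marks 1 FPKM. At that line the members stand at 21.2%, the falling genes at 32.4%, the rising genes at 20%, and the other 2 curves near 3%.

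In leaves, 6 members were listed at 0: DRNL, NUB, MIR171a, MIR319b, AT4G09649 and the tRNA gene. A listed 0 is not a measured absence in this table: RBCS1A, a main Rubisco gene of leaves, was also listed at 0 there. At the other end, 18 members were highest in leaves of all 4 groups. The calcium-binding protein MSS3 stood at 204 FPKM in leaves and 164 at day 2, GSTU7, a glutathione transferase, at 112 and 38.9, and AT1G67360, annotated as a rubber elongation factor protein, at 262 and 131. AT4G35750, with a SEC14-type lipid-binding domain, reached 409 in leaves against 196 at day 2.

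Members differed from other genes in structure as well. A single annotated exon was present in 47 of the 155 annotated members (30.3%), against 11.2% of the genes that could have met the rule. The mirrored patterns had 24.4% (rising), 37.8% (falling) and 23.6% (low at day 2). The median transcript was 1522 nucleotides, against 1718. Protein-coding genes were 147 of the 156.

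Some members were direct neighbours in the genome. GRF2 lies next to ANT, AS1 next to the expansin gene EXP3 (68.4 FPKM at day 0, 127 at day 2, 55.3 in inflorescences), and the Dof gene AT1G64620 next to AT1G64625 (3.88, 14.2 and 4.56). Within 3 gene steps there were 9 pairs, and how many another set of genes of this size would hold was not counted. The library kit kept the strand of the RNA, but whether counting used it is not given in the sources used here, so values of overlapping neighbours are less sure.

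At the threshold of 1.5 against day 0, AT2G38160 and AT3G45230 (both 1.5002), TMO5 (1.504) and GRF5 (1.505) lay just inside, and AHP6 (1.4996), VPS28-1 (1.497), GAMMA-VPE (1.49) and AT1G78172 (1.49) just outside. Against inflorescences, AT5G50090 (1.51), EMB1873 (1.53), AT5G39220 (1.54) and AT3G45230 (1.55) were inside, and GSTU16 (1.49), UMAMIT11 (1.49), PP2-B11 (1.49) and AT3G11000 (1.46) outside. For the day-2 level, ATSBT5.2 (10.1 FPKM), UGT74D1 (10.2), MAPKKK18 (10.2) and SETH6 (10.5) were inside, and AT2G21560 (9.59), AT1G71870 (9.22), AT3G51660 (9.14) and AT5G14230 (9.06) outside. With no replicate values, genes on either side of a threshold by this little cannot be ranked.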

How the data were processed

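RNA was sequenced from 4 groups with 3 libraries each (poly(A)-selected, stranded, 50 cycles, per the labels' protocols). The authors deposited a table with a single FPKM value per gene and group; no header names the unit, which rests on the range of the values and on Cufflinks being listed. Build TAIR10 and the tools Cufflinks 2.1.1, TopHat2 2.0.10, Bowtie2 2.1.0 and CASAVA 1.8.2 are listed in the submitters' processing notes. The annotation and the merging or scaling of libraries were not given in the sources used here. The values were not per library, so the replicate tests foreseen in the design could not be used and no p-value is given.

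Rows of a repeated identifier were summed (567 identifiers, no member among them), and 1 FPKM was added before ratios, which understates changes of low genes. Promoters and microRNA sites were read with Python 3.11.15 from RefSeq's TAIR10.1 annotation, which held 155 of the 156 members. The code applying the rule was checked on made-up rows with known answers. The members, gene lists and motifs were chosen with earlier results of these data known. Named genes were the 12 members with the largest ratio of each kind and the 12 with the largest smaller ratio, members of a list, the first 3 genes of each list, and the 4 genes on each side of a threshold; those without a symbol could be left out. Other genes were named after their values had been seen. The values of 1 member are not reported here.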

Additional observations from a re-analysis of the deposited data

How the results depend on the processing

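The number of genes peaking at day 2 was 156. It became 490 when day 2 had to be only 25% above both other groups, and 50 when it had to reach a ratio of 2, and stayed within 1.5 times of 156 in the other 10 alternatives run, from 113 (at least 20 FPKM at day 2) to 199 (groups rescaled to the same sum, all 156 kept). Rescaling to the same upper quartile gave 152, of which 144 were among the 156, and adding 5 FPKM gave 121. The share under 1 FPKM in leaves was 13.3% under the 25% threshold. The median leaf level was 9.63 FPKM under the 25% threshold, 2.65 with a ratio of 2 and 8.90 with at least 20 FPKM at day 2. The causes were not tested. Rescaling to the same upper quartile moved the log2 ratio of day 2 over leaf by 0.29 and to the same sum by 0.55; day 2 over day 0 moved by 0.01 and 0.04. No paired analysis was possible because each group came as a merged value; for the same reason no library could be left out. Depth per library is unknown, so low values carry no counting interval.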

Other observations

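A further 11 genes reached 10 FPKM at day 2 and passed both ratios. They were listed at 0 at day 0 or in inflorescences, which kept them out of the 156. CAT3, a catalase gene, was listed at 335 FPKM at day 2 and at 0 in the other 3 groups. The other 10 were short RNAs or had no transcript length, among them the microRNA precursors MIR166d (32.1 FPKM at day 2, 0 elsewhere) and MIR166c (21.3 FPKM at day 2, 0 at day 0, 6.07 in inflorescences and 14.1 in leaves). A listed 0 can be a failed estimate, and no ratio against it is given.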
